A study of Arabidopsis thaliana with 6 samples.

Results

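In Arabidopsis thaliana cotyledons induced to form vascular cells, 61 genes gave a bright array signal in wildtype and a signal near the middle or lower part of the array in the apl mutant. They were chosen from 14743 genes that the array annotation names by a locus code alone. A gene was kept if its wildtype mean was at least 8, its apl mean at most 6.2, and apl minus wildtype at most -2.5, all as log2 signal and with the brightest probe set standing for a gene. These thresholds were met by 70 genes, and 9 of them were left out by name. The rule used the apl and wildtype means, so the direction and the least size of each difference were set by the choice, and the differences below are a description with no test.

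The tissue was cotyledons of 6-day-old seedlings cultured for 72 h in a medium holding bikinin at 10 µM, kinetin at 0.25 mg/L and 2,4-D at 1.25 mg/L. Both groups had this treatment. One group was the apl mutant (3 arrays), whose allele and cultivar the labels do not give, and the other was wildtype Col-0 (3 arrays). The labels do not say whether replicates came from separate cultures. RNA of a whole cotyledon is measured, so fewer cells of a type and less RNA per cell cannot be told apart.

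The culture is known as VISUAL. Auxin, cytokinin and bikinin, an inhibitor of the kinases that restrain brassinosteroid signalling, together drive leaf mesophyll cells into the vascular lineage, where they become xylem vessel cells and phloem sieve elements. Sieve elements carry sugars through the plant. They clear most of their cell contents, lose the nucleus, and connect through pores lined with callose. APL is a MYB-type transcription factor required for phloem identity, and without it xylem features appear in place of phloem in the root. The comparison asks which transcripts depend on APL in this culture. No probe set is paired with APL by 1 name, so its own level is not analysed here.

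**Figure D1:**
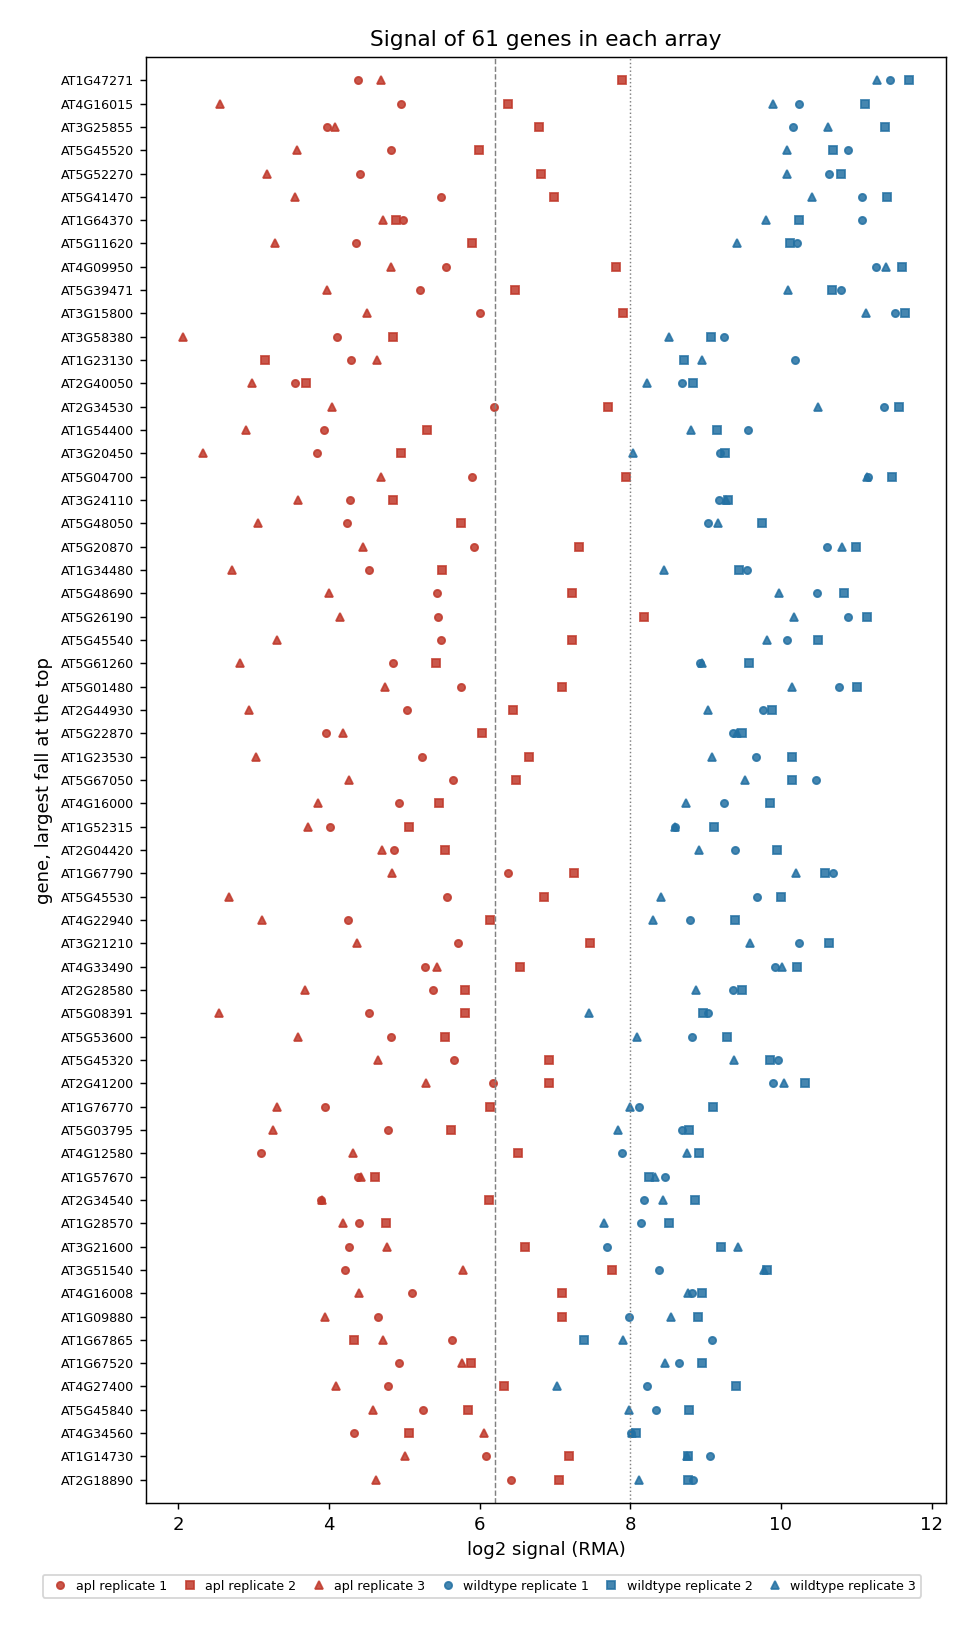
Log2 signal (x axis) of the 61 genes (y axis, largest difference at the top) in each apl array (red) and each wildtype array (blue), with circles, squares and triangles for replicates 1, 2 and 3. The dashed line marks 6.2 and the dotted line 8. No gene overlaps between groups, and the red squares of apl replicate 2 lie to the right of the other red points in 57 of 61 genes.

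The choice itself made the 61 genes bright in wildtype, since a mean of 8 is close to the 75th percentile of genes, and the wildtype levels that follow only describe them. The median of the 61 genes lay at percentiles 88.7, 91.5 and 85.6 of the 14743 genes in wildtype replicates 1, 2 and 3, and 57, 59 and 53 of the 61 were above the 75th percentile. "Near background" held less well in apl replicate 2 than in the other 2 apl arrays. The median of the 61 was 4.86 in apl replicate 1 and 4.08 in apl replicate 3, at percentiles 40.8 and 35.2, but 6.38 in apl replicate 2, at percentile 56.0. In apl replicate 2, 32 of 61 genes exceeded 6.2 and 17 reached at least 7, whereas 2 exceeded 6.2 in apl replicate 1 and 0 in apl replicate 3. In apl replicate 2, 42 of the 61 were above the median of all 14743 genes, against 9 in apl replicate 1 and 3 in apl replicate 3. The deposited values have no detection call, and 6.2 is close to the array-wide median of 6.05 to 6.25, so it is not a measured background.

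The lower 3 arrays of every gene were those of apl. The gap between the lowest wildtype and the highest apl array ranged from 0.63 in AT3G51540 to 4.81 in AT1G64370 on the log2 scale, with a median of 2.98. All 61 were without overlap, where 5.32% of all probe sets have all apl arrays below all wildtype arrays, and nothing is read from this because the rule used that contrast. The median difference, apl minus wildtype, was -4.58, a 23.9-fold lower signal in apl, with a range of -5.82 to -2.54. At least 4 log2 units separated the means of 42 genes and at least 5 those of 19. Over the 14743 genes the median difference was 0.08.

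**Figure D2:**
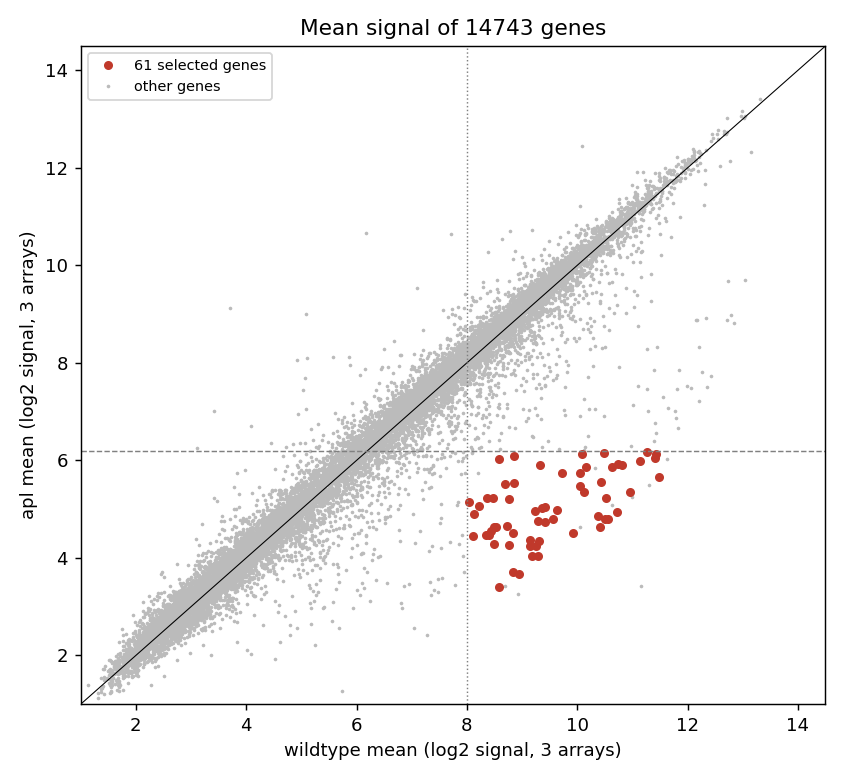
Mean log2 signal in apl (y axis) against that in wildtype (x axis) over 3 arrays each for 14743 genes. The 61 selected genes (red) fill the lower right, bounded by the dotted line at 8 and the dashed line at 6.2, and the diagonal marks equal signal.

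The widest difference was in AT1G47271, which encodes a protein with a CBS domain, a fold that often senses adenosine nucleotides. Its log2 signal was 4.39, 7.90 and 4.69 in apl replicates 1 to 3, against 11.45, 11.71 and 11.28 in wildtype, a 56.5-fold lower mean in apl. The wildtype arrays agreed to within 0.43, while apl replicate 2 lay more than 3 units above its fellow apl arrays. AT4G16015 had 4.96, 6.38 and 2.55 in apl and 10.25, 11.11 and 9.89 in wildtype. In this gene all 3 apl arrays stood apart from each other, over a range of 3.82. AT3G25855, of a family of copper-binding proteins, had 3.97, 6.79 and 4.08 in apl and 10.16, 11.39 and 10.63 in wildtype. Here apl replicates 1 and 3 were alike and replicate 2 was higher.

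AT5G45520, a leucine-rich repeat protein and a marker of these genes, had 4.83, 5.99 and 3.58 in apl, against 10.89, 10.69 and 10.08 in wildtype. Its mean was 4.80 ± 1.20 in apl and 10.55 ± 0.42 in wildtype (SD, n = 3 each), a 53.9-fold difference. The other marker, AT1G64370, was steady in apl, with 4.99, 4.90 and 4.72 in apl, against 11.07, 10.24 and 9.80 in wildtype. Its apl mean was 4.87 ± 0.14 and its wildtype mean 10.37 ± 0.65 (SD, n = 3 each), so for this gene it was the wildtype arrays that spread. The means of the 2 markers differed between groups by about the same amount, -5.75 and -5.50.

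AT5G52270, a SNARE-like protein of the type that drives membrane fusion, had 4.41, 6.82 and 3.19 in apl and 10.64, 10.80 and 10.08 in wildtype. AT5G41470, with a domain like that of nuclear transport factors, had 5.49, 6.99 and 3.55 in apl and 11.07, 11.41 and 10.41 in wildtype. AT5G11620, with a SWIM-type zinc finger, had 4.36, 5.90 and 3.29 in apl and 10.21, 10.12 and 9.42 in wildtype. All 3 genes shared the order of apl arrays, with replicate 2 highest and replicate 3 lowest. AT4G09950, an AIG1-type GTPase of a family first tied to disease resistance, had 5.55, 7.81 and 4.82 in apl and 11.26, 11.60 and 11.39 in wildtype. AT5G39471 had 5.21, 6.47 and 3.98 in apl and 10.79, 10.68 and 10.10 in wildtype. The wildtype arrays of AT4G09950 lay within 0.34 of each other, while its apl arrays covered 2.98.

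The 61 genes are taken up next by protein family. The tables used here give the 61 genes no name beyond the locus code, and the families stated are background from the public Arabidopsis annotation, given for 38 of the 61. They were assigned with the differences known and were not tested. Counts by family cover the 61 only, since the rule left out other TRAF-like, C1-domain and GDSL lipase genes by name.

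Among enzymes of polysaccharides, AT3G15800 and AT5G20870 belong to the glycosyl hydrolase family that includes callose-degrading enzymes. AT3G15800 had 6.01, 7.91 and 4.51 in apl and 11.52, 11.65 and 11.13 in wildtype, 39.2-fold lower. AT5G20870 had 5.93, 7.32 and 4.46 in apl and 10.61, 10.99 and 10.82 in wildtype, 30.0-fold lower. Both were brighter in wildtype than the median of the 61, and both had a signal above 7 in apl replicate 2. AT1G09880, of the rhamnogalacturonate lyase family, which cuts pectin, had a smaller difference of -3.24. Its apl values were 4.66, 7.10 and 3.95 and its wildtype values 7.99, 8.90 and 8.55, so apl replicate 2 lay only 0.89 below the lowest wildtype array. AT5G03795, an exostosin-type glycosyltransferase, differed by -3.88.

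Genes of C1-domain proteins, cysteine- and histidine-rich zinc-binding proteins common in plants, numbered 4 of the 61, as did protein kinases. No other family assigned had as many. The share of these families among all genes was not counted, so nothing is read from the numbers. AT2G40050 was the dimmest of the 61 in apl, at 3.55, 3.70 and 2.99, against 8.68, 8.84 and 8.22 in wildtype. AT1G34480 had a mean of 4.25 ± 1.41 in apl and 9.15 ± 0.60 in wildtype (SD, n = 3 each). In AT5G26190 the apl values were 5.45, 8.18 and 4.16 and the wildtype values 10.89, 11.15 and 10.17. Its 8.18 in apl replicate 2 was the highest apl value of any of the 61. AT5G01480 had a mean of 5.86 ± 1.18 in apl and 10.64 ± 0.45 in wildtype (SD, n = 3 each). Within 1 family, then, the apl signal ran from flat to widely spread.

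The 4 protein kinases all had differences smaller than the median of the 61. AT2G18890, a receptor-like cytoplasmic kinase, differed by -2.54, AT5G45840, a leucine-rich repeat receptor kinase, by -3.14, and AT1G67520, a lectin-type receptor kinase, by -3.16. The kinase AT4G22940 differed by -4.33. AT2G18890 had 6.41, 7.06 and 4.62 in apl and 8.84, 8.77 and 8.12 in wildtype, the smallest difference of all 61. Both calcium-related genes had larger differences than these kinases. AT3G24110, an EF-hand protein that can bind calcium, had 4.29, 4.85 and 3.59 in apl and 9.18, 9.30 and 9.27 in wildtype, and AT5G61260, related to calmodulin-binding proteins, differed by -4.78.

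Both genes for proteins like small heat shock chaperones, the family to which the sieve element protein RTM2 belongs, were lower in apl. AT1G54400 had 3.94, 5.30 and 2.90 in apl and 9.56, 9.15 and 8.81 in wildtype, a difference of -5.13. AT1G76770 had 3.96, 6.14 and 3.31 in apl and 8.12, 9.10 and 7.99 in wildtype, a difference of -3.94. The order of apl arrays was the same in both. RTM2 itself has no probe set of its own name in the annotation and is not analysed here.

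Other families, with 1 or 2 of the 61 genes each, covered a wide range of protein types. AT3G58380, a TRAF-like protein, had 4.11, 4.85 and 2.06 in apl and 9.24, 9.07 and 8.51 in wildtype, and its 2.06 was the lowest value of any of the 61. AT1G23130, of the Bet v 1 type that binds small hydrophobic molecules, had 4.30, 3.15 and 4.64 in apl and 10.19, 8.72 and 8.96 in wildtype. It was 1 of 2 genes in which apl replicate 2 was the lowest apl array. The lipase-type genes AT5G67050 and AT1G28570 differed by -4.58 and -3.65, and the aspartyl protease gene AT4G33490 by -4.30. AT5G04700, an ankyrin repeat protein, had the highest apl mean of the 61, at 6.18 ± 1.64, against 11.26 ± 0.19 in wildtype (SD, n = 3 each). The DUF247 genes AT2G44930 and AT2G28580, whose role is not established, differed by -4.75 and -4.28, and the late embryogenesis abundant-like genes AT5G22870 and AT4G27400 by -4.69 and -3.15. AT4G27400 had the widest wildtype range, 2.37, with 8.22, 9.40 and 7.03.

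The apl arrays differed from each other in a shared order. Replicate 2 was the highest apl array in 57 of 61 genes and replicate 3 the lowest in 48, and 47 genes, 77%, had both. Over all 14743 genes this order was found in 23.4%, and apl replicate 2 was highest in 35.9%. For genes as dim in apl (apl mean from the lowest of the 61 to 6.2) whose group means differed by less than 1, 4385 in number, the order was found in 24.9%. The 192 genes with a wildtype mean of at least 8 that were lower in apl by at least 1 but kept an apl mean above 6.2 had it in 71.9%. The order was thus found in most genes of both sets that were lower in apl.

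**Figure D3:**
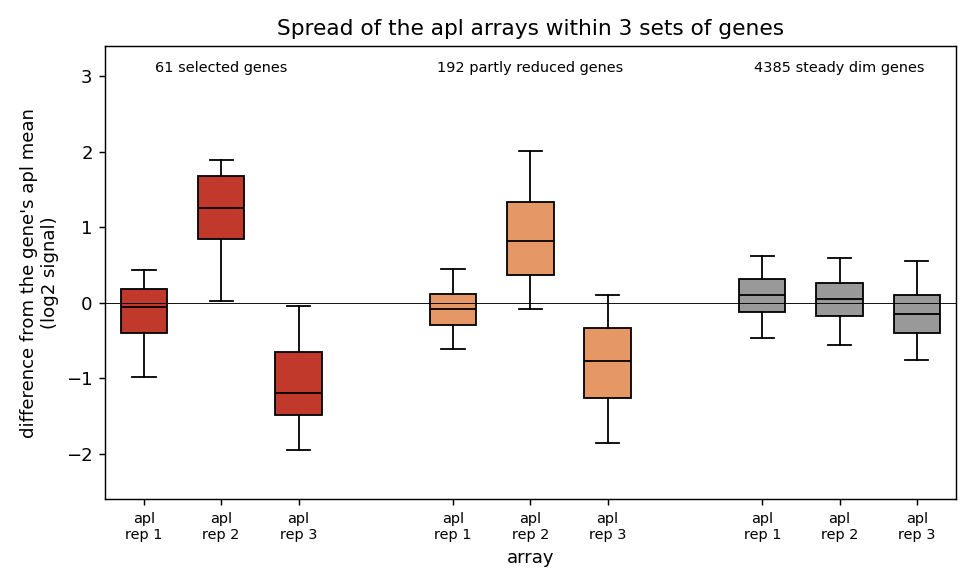
Difference of each apl array from the gene's own apl mean (y axis, log2 signal) for the 61 selected genes, 192 partly reduced genes and 4385 steady dim genes. Boxes span the quartiles with the median as a line, and whiskers run from the 5th to the 95th percentile of genes. In the first 2 sets apl replicate 2 lies above and replicate 3 below the mean, and in the steady genes the 3 arrays lie close together.

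Apl replicate 2 exceeded the average of apl replicates 1 and 3 by a median of 1.88 log2 units in the 61 genes, 1.22 in the 192 partly reduced genes and 0.08 in the steady dim genes. The median SD over apl arrays was 1.28 in the 61 genes and over wildtype arrays 0.43. In the steady dim genes the median SD was 0.36 over apl arrays and 0.33 over wildtype arrays. The apl range exceeded the wildtype range in 56 of the 61. The exceptions were AT1G64370, AT2G04420, AT1G28570, AT1G67865 and AT4G27400.

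The flattest gene in apl was AT1G57670, of a family with the TIR domain found in plant immune receptors. It had 4.39, 4.61 and 4.43 in apl, against 8.46, 8.25 and 8.32 in wildtype, with neither group spreading over more than 0.22. AT1G28570, of the GDSL lipase type, had 4.40, 4.76 and 4.19 in apl and 8.15, 8.51 and 7.65 in wildtype. Only 6 of the 61 had an apl range under 1, namely these 2, AT1G64370, AT2G40050, AT2G04420 and AT1G67520. At the other end, 19 genes had an apl range over 3. AT5G45530, a DUF594 protein, spread most, with 5.56, 6.86 and 2.67 in apl, against 9.69, 10.00 and 8.41 in wildtype.

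The wildtype arrays also had an order, with replicate 2 highest in 44 of 61 genes and replicate 3 lowest in 43. Over all genes these shares were 33.7% and 39.2% and in the 192 partly reduced genes 70.3% and 52.1%, against 72.1% and 70.5% here. Taken by replicate number, the median difference was -4.59 for replicate 1, -3.66 for replicate 2 and -5.23 for replicate 3, or 24.1-fold, 12.7-fold and 37.6-fold lower in apl. The difference was smallest in replicate 2 for 51 genes. AT3G51540, the gene with the narrowest gap between groups, had 4.21, 7.75 and 5.78 in apl and 8.38, 9.81 and 9.77 in wildtype.

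Of a list of 12 xylem genes 3 were measured. These, the xylan genes IRX15, IRX15-L and IRX10 (GUT2 in the annotation), had a mean log2 signal of 9.06, 9.88 and 8.10 in apl replicates 1 to 3, against 9.98, 10.75 and 10.98 in wildtype. The apl arrays had the order seen in most of the 61, but wildtype replicate 3 was the highest here, where it was the lowest for most of the 61. All 3 xylem genes lay below 0 in apl minus wildtype, with a median of -1.48, and 0 passed the limma test. Of 18 phloem genes 3 were measured, with mean log2 signals of 8.71, 8.36 and 7.86 in apl and 8.16, 7.62 and 7.09 in wildtype, so that the mean of replicate 1 was highest in both groups. AT2G38070 alone went another way, with 6.10, 6.72 and 5.61 in apl and 6.37, 7.12 and 7.18 in wildtype. Of the 3 phloem genes 2 lay above and 1 below 0, with a median of 0.55, SWEET11, a sucrose exporter, differed by 2.25, and 0 were called. The 2 measured of 4 photosynthesis genes averaged 9.52, 9.53 and 9.62 in apl and 9.23, 9.85 and 9.62 in wildtype. The 4 reference genes averaged 10.40, 10.48 and 10.38 in apl and 10.45, 10.54 and 10.41 in wildtype, with the same order of arrays but values close together. Of 3 stomatal lineage genes 0 were called. None of the 61 is on these lists. The lists hold a few chosen genes and not every gene of a cell type or of a gene's family, so this does not show that the 61 lack phloem or xylem genes. The part of a differing share of xylem or phloem cells between arrays was not tested.

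Some of the 61 stand next to each other in the genome. By the gene order that RefSeq gives for TAIR10.1, 8 of the 61 have another of the 61 as the next protein-coding gene, in 3 runs. On chromosome 5, AT5G45520, AT5G45530 and AT5G45540 follow one another and differed by -5.75, -4.33 and -4.79. AT5G45540, like AT5G45530 a DUF594 protein, had 5.49, 7.23 and 3.31 in apl and 10.08, 10.49 and 9.82 in wildtype. The measured genes on either side were close to 0, as AT5G45510 differed by -0.34 and AT5G45550 by 0.03.

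On chromosome 4, AT4G16000, AT4G16008 and AT4G16015 form a run with differences of -4.53, -3.32 and -5.79. AT4G16000 had 4.93, 5.46 and 3.86 in apl, against 9.24, 9.86 and 8.74 in wildtype. AT4G16008 had 5.10, 7.09 and 4.40 in apl, against 8.81, 8.96 and 8.77 in wildtype. Their outer neighbours AT4G15990 and AT4G16024 were dim in both groups and differed by -0.67 and -0.15. On chromosome 2, AT2G34530 and AT2G34540 are adjacent. AT2G34530 had a mean of 5.98 ± 1.84 in apl and 11.14 ± 0.57 in wildtype (SD, n = 3 each), and AT2G34540 had 3.89, 6.12 and 3.91 in apl and 8.18, 8.86 and 8.43 in wildtype. The edges of this run are less clear, since the next genes on both sides are not measured under 1 name.

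AT1G67865 lies between AT1G67860 and AT1G67870, which passed the thresholds and were left out by name. It had 5.63, 4.33 and 4.72 in apl and 9.08, 7.39 and 7.90 in wildtype, and its neighbours differed by -5.27 and -4.47. In this gene replicate 1 was the highest array of both groups and replicate 2 the lowest, unlike the order of most of the 61.

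**Figure D4:**
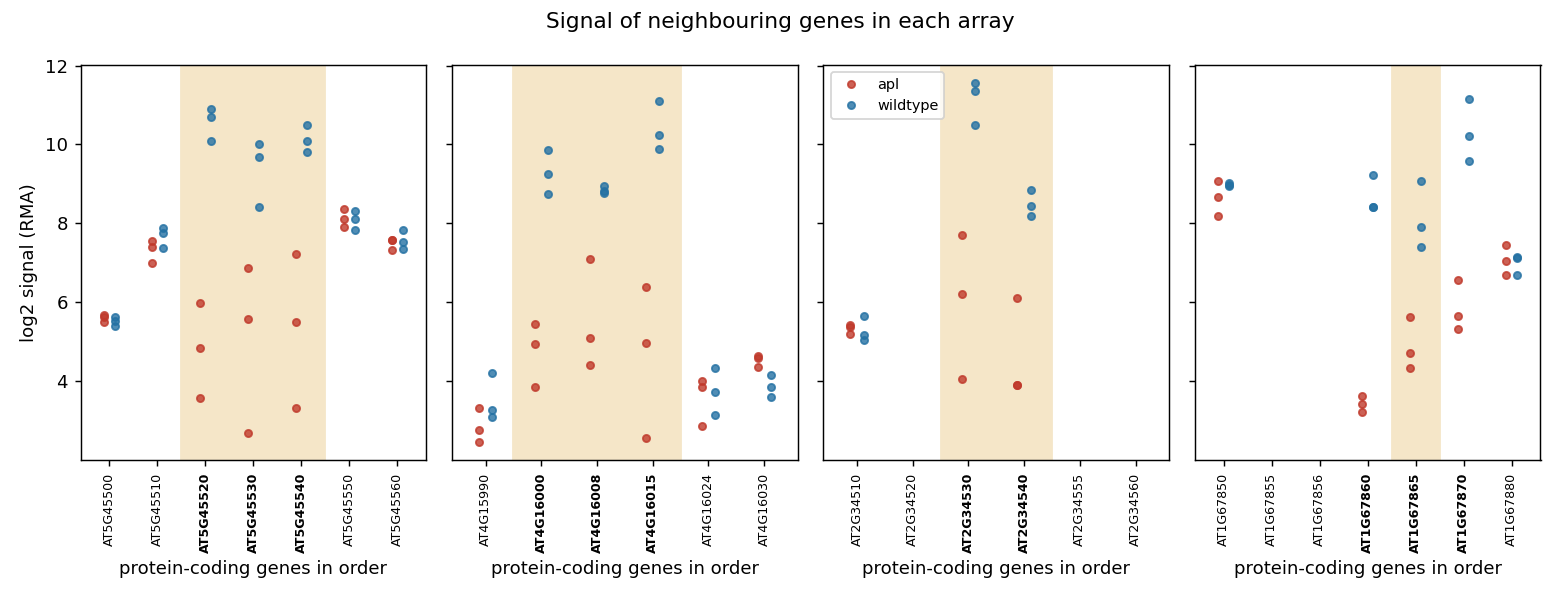
Log2 signal (y axis) of protein-coding genes in chromosomal order (x axis, not to scale) around 4 sites, with 3 apl arrays (red, left) and 3 wildtype arrays (blue, right) per gene. Shading marks genes of the 61, bold names all that passed the thresholds, and empty places are genes not measured under 1 name. The groups part within the shaded or bold genes and lie close together at the measured flanks.

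Most measured next protein-coding genes outside the 61, the flanks of the runs included, differed by less than 1 log2 unit. Differences of -1 or less were more frequent among them than among all measured genes, and this was not tested. Of 74 measured next genes outside the rule, 65 lay within 1 log2 unit and 9 at -1 or less, with a median of -0.07, where 95.6% of all measured genes lay within 1 unit and 3.52% at -1 or less. The lowest were AT5G04690, next to AT5G04700, at -4.75, AT5G48060, next to AT5G48050, at -3.70, and AT1G23520, next to AT1G23530, at -2.75. Whether probes are shared between related neighbours was not tested.

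By chromosome, 15, 8, 8, 9 and 21 of the 61 lie on chromosomes 1 to 5. Chromosome 5 thus holds 34.4% of them, against 23.3% of the 14743 genes and 24.4% of those with a wildtype mean of at least 8. Chromosome 3 holds 13.1%, against 20.6% and 20.1%. On chromosome 4 the shares were alike, 14.8%, 14.7% and 14.8%. None of the genes left out by name lies on chromosome 5, so leaving them out raised its share of the 61. The shares were not tested.

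A second probe set existed for 1 of the 61 genes, and it disagreed. For AT1G67790 the brighter probe set had 6.38, 7.25 and 4.84 in apl and 10.69, 10.59 and 10.20 in wildtype. The other had 7.89, 7.84 and 7.54 in apl and 8.02, 8.22 and 7.80 in wildtype, a difference of -0.25 against -4.34. With the mean of both probe sets AT1G67790 no longer met the rule. Nor did it without wildtype replicate 1, where the other probe set became the brightest and the difference was -0.25.

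The rule's edges cut through a continuous range. Just inside the wildtype threshold were AT4G34560 (wildtype mean 8.03), AT1G28570 (8.10) and AT1G67865 (8.12), and just outside were AT4G01600 (7.93), AT4G32342 (7.92) and AT1G26890 (7.86). Just inside the apl threshold were AT5G04700 (apl mean 6.18), AT1G67790 (6.16) and AT3G15800 (6.14), and just outside AT5G65530 (6.21), AT1G16022 (6.24) and AT4G05430 (6.27). For the difference, AT2G18890 (-2.54), AT1G14730 (-2.76), a cytochrome b561-type membrane protein, and AT4G34560 (-2.88) were inside, and AT5G41290 (-2.46), AT3G56230 (-1.94) and AT2G40110 (-1.91) outside. The apl threshold alone kept out 49 genes, the wildtype threshold alone 37 and the difference alone 3.

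The mirrored thresholds, with apl bright and wildtype dim, were met by 6 genes, against 70 for the rule as given, left-out genes included. Among the 6 was AT2G13547, with 11.17, 10.13 and 10.69 in apl and 6.34, 5.91 and 6.28 in wildtype. The numbers of bright genes in the groups were close, 3753 with an apl mean of at least 8 and 3779 with a wildtype mean of at least 8, and the 61 make up 1.61% of the genes bright in wildtype.

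In the limma fit over all 38408 probe sets, 38 of the 61 had a Benjamini-Hochberg adjusted p under 0.05, where 0.526% of all probe sets were called lower and 0.0781% higher in apl. With the replicate number as a block 52 of the 61 were called, where 0.885% of all probe sets were called lower and 0.211% higher. Nothing is read from these counts, since the same contrast chose the genes. Without apl replicate 3 the rule was met by 45 genes, 44 of them among the 61, and without apl replicate 2 by 83, which held all 61.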

How the data were processed

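The deposited values are log2 signals, made by the authors with RMA per the submitters' processing notes, which give no version. RMA corrects background, equalises arrays and summarises probes, which draws together the differences of dim transcripts, so folds are of signal and not of transcript number. Which arrays were processed together is not stated in the labels. The 6 arrays had medians of 6.05 to 6.25, and their number limits the precision.

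The annotation gives 16722 of the 38408 probe sets 1 gene symbol, 759 more than 1 and 20927 no symbol, and 14896 of the single symbols are locus codes. All 61 codes matched the RefSeq table of TAIR10.1, used for gene order only. The brightest probe set had the highest mean over all arrays. All probe sets were fitted with limma 3.58.1 (lmFit, eBayes, R 4.3.3), 2-sided with Benjamini-Hochberg adjustment, and the fit was tested on simulated data. The simulated arrays had equal spread in both groups and no link by replicate number. They therefore do not test the fit for genes whose apl arrays spread more. Figures were drawn with matplotlib 3.10.9.

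The genes, lists and families were chosen with earlier results of these data known. All 61 genes may be named, and values in every array are given for the 12 largest differences, the markers, the extremes of apl spread, and family or neighbour pairs, though not for every gene that the rule allows. Promoter motifs were not analysed here.

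For arrays of the same replicate number, deviations from group means had a correlation of 0.40 to 0.45, so the number was taken to pair the arrays, from the data and not from the labels. The main fit did not use this pairing, and the calls for the listed xylem, phloem and stomatal genes come from that fit alone. The labels name no separate cultures, so p-values cover the spread of these arrays, possibly only technical. Alternatives were a replicate block, quantile normalization, median centring, a robust variance trend, a filter on dim probe sets, 1 probe set per gene, averaging the probe sets of a gene, stricter thresholds and leaving out each array.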

Additional observations from a re-analysis of the deposited data

How the results depend on the processing

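The 61 genes stayed lower in apl under all alternatives run. This was largely set by the choice, since leaving out an array cannot reverse a probe set whose groups do not overlap. AT1G67790 differed by only -0.25 without wildtype replicate 1. The median difference of the 61 ranged from -5.15 to -3.98 without 1 array, and was -4.60 after quantile normalization and -4.63 after median centring. The rule was met by 45 to 83 genes without 1 array, 63 after either scaling, 60 when the probe sets of a gene were averaged, 38 at a wildtype mean of at least 9, 42 at an apl mean of at most 5.5 and 51 at a difference of at most -3.5. Choosing the brightest probe set by the wildtype mean, an alternative added after seeing the data, gave the same 61. It could change little, since only 1 of the 61 has a second probe set. The fold moved by over 1.5 times in 38 genes without apl replicate 2 and in 31 without apl replicate 3, but in at most 3 without any other array. Over all probe sets limma called 202 lower and 30 higher in apl, and 340 and 81 with the replicate block, which called 52 of the 61 in place of 38. A variance trend with robust prior gave 314 and 98, and leaving out probe sets under the 25th percentile gave 61 higher. Without 1 array the lower calls ranged from 20 to 308 and the higher calls from 1 to 22. The cause of these moves was not tested. With no detection call, the depth of the apl signal below the array median has no measured floor.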

Other observations

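Genes that carry a symbol in place of a locus code were outside the rule, and 6 of them met its thresholds. GSTF4 had 6.24, 7.73 and 3.50 in apl and 11.57, 11.55 and 10.50 in wildtype, a difference of -5.38, and so had the order of apl arrays seen in most of the 61. NTL had 4.00, 6.15 and 2.71 in apl and 8.27, 8.74 and 7.59 in wildtype, again in that order. PWD, with 4.99, 4.45 and 3.43 in apl and 10.03, 9.34 and 8.78 in wildtype, and GH9B17, with 5.62, 4.68 and 5.00 in apl and 8.78, 8.01 and 7.74 in wildtype, did not have apl replicate 2 highest. PM-ANT and AGL93 differed by -2.79 and -2.62.

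Among the 20927 probe sets that the annotation leaves unnamed, 26 met the same thresholds and 4 the mirrored ones. Their median difference was -4.36, with a range of -5.68 to -2.59, and apl replicate 2 was the highest apl array in 21 of 26. The share meeting the thresholds was 0.124% of unnamed probe sets and 0.475% of the 14743 genes. A gene counted by its brightest probe set while every unnamed probe set counted, so the shares are not directly comparable. The share of unnamed probe sets that are bright in wildtype is not given here. What the unnamed probe sets measure is not known here.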
